A study of Homo sapiens with 6 samples.

Results

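RNA polymerase I (Pol I) and its initiation factors were followed in PANC1 cells through 10 genes of the 20461 in the deposited RNA-seq table: the subunit genes POLR1A, POLR1B, POLR1C, POLR1D, POLR1E, POLR1F (listed in older annotation as TWISTNB) and POLR1G (formerly CD3EAP), and the initiation factor genes UBTF, RRN3 and TAF1D. They were chosen with earlier results of these data known and taken by name, each matched through its Ensembl identifier. All 10 passed the filter of at least 10 fragments over the 4 libraries. In all 14854 genes passed it. PANC1 is an established line from a human pancreatic ductal carcinoma. The cells received either vehicle (0.1% DMSO, 2 biological replicates) or gemcitabine, a deoxycytidine analogue that stops DNA synthesis, at 50 nM (2 biological replicates), each for 48 h. The labels name no other agent and no genetic change in either group. DNaseI-seq, which reads open chromatin, had 1 library per condition, also with 50 nM gemcitabine in the treated cells.

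Pol I transcribes the ribosomal RNA genes in the nucleolus and makes the precursor of the large ribosomal RNAs. UBTF binds along these genes and, with the TBP-containing complex SL1, to which TAF1D belongs, marks their promoter. RRN3 carries the polymerase to that promoter by binding its stalk, which includes POLR1F. Pol I output is tied to growth and is high in many carcinomas, where the nucleolus is often enlarged.

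The 4 RNA-seq libraries held between 13194533 and 15766237 fragments on protein-coding genes. For a gene with no fragments in a library, the count of 0 allows a level of up to 3 fragments, or 0.190 to 0.227 CPM (fragments scaled to library size) across the 4 libraries, for counting error only. Of the markers of the line, KRT8, KRT18 and VIM had between 5963 and 12432 fragments in every library, while KRT19, a ductal keratin, had 45 and 45 in vehicle and 94 and 88 after gemcitabine. KRT8, KRT18 and KRT19 were higher after gemcitabine (log2 fold changes 0.29, 0.27 and 1.13, edgeR adjusted p = 0.00320, 0.00586 and 0.000645), opposite to the members, and VIM did not pass the test (0.03). Their part in the results was not tested. INS, GCG, PRSS1 and ALB were listed at 0 in every library and PTPRC at 2 to 9 fragments, so markers of islet, acinar, hepatic and blood cells were at or near 0. PECAM1, the planned marker of endothelium, was not found by its symbol, so endothelial cells were not checked. A bulk library does not tell fewer cells with a transcript from less of it per cell.

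Most of the Pol I genes had lower levels after gemcitabine. In edgeR's quasi-likelihood test, with p-values adjusted by Benjamini-Hochberg over all 14854 genes, 9 of the 10 had an adjusted p under 0.05 and a lower level after gemcitabine, and 0 had one with a higher level, also at an unadjusted p and with DESeq2. Over all tested genes, 20.0% passed that test lower and 18.5% higher. The 9 became 7 with DESeq2, 4 with limma on log2(FPKM + 1), which kept POLR1B, POLR1E, POLR1G and TAF1D, and 0 with limma and no filter. They became 7 without vehicle library 1 and 6 without vehicle library 2, where POLR1C, POLR1F and POLR1G no longer passed. A fit without 1 library leaves 1 sample in that condition, which is assumed to vary like the pair of the other condition. The pairs varied unequally, by a mean chi-square per gene of 2.17 with vehicle and 5.16 with gemcitabine, so p-values of such fits are not comparable with the others. A gene was called when it also changed over 1.5-fold, reached a mean of 0.1 FPKM in 1 condition and differed by at least 1 FPKM (fragments scaled to transcript length and to library size). By these criteria 5 members were called lower, POLR1A, POLR1B, POLR1E, POLR1G and TAF1D, and 0 higher in any setting tried, against 4.43% of all tested genes called lower and 5.69% called higher. These were 658 and 845 genes, and with library totals in place of TMM scaling 417 and 1164. The median log2 fold change was -0.56 over the members and 0.0068 over all tested genes. Summed over the members, CPM after TMM scaling (a scaling that allows for a change in the makeup of a library) was 816 and 819 in the vehicle libraries and 559 and 560 in the gemcitabine libraries.

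**Figure D1:**
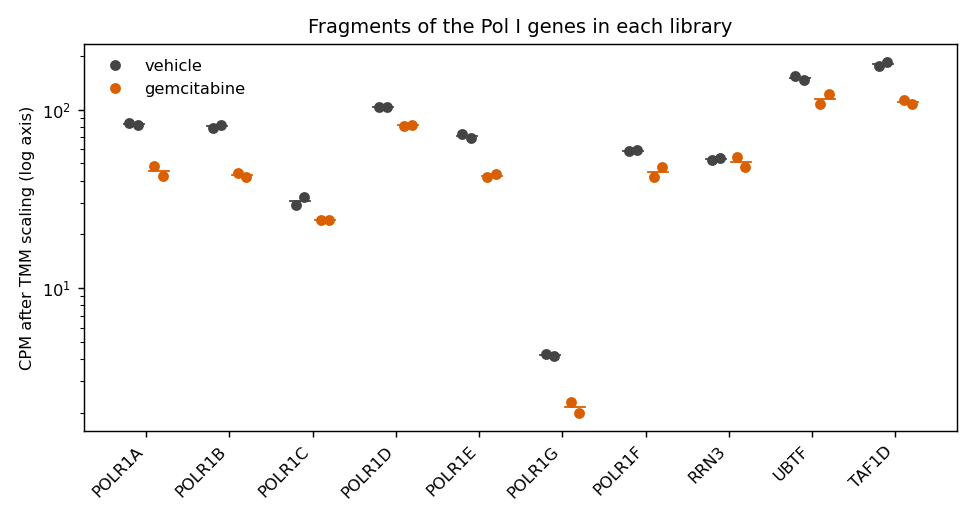
CPM after TMM scaling of each Pol I gene in each library, on a log axis, with 2 vehicle and 2 gemcitabine libraries as points and the group mean as a line. The gemcitabine points lie below both vehicle points for every gene but RRN3.

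Promoter sequences of members are shown here beside their fold changes and the peaks listed at their starts. Whether members differ from each other in either was not tested, nor was any link to the sequence. They come from the RefSeq table of build GRCh38.p14, which held 13 promoters of 9 members (250 bases before and 50 after the start, 5′ to 3′ on the strand of the gene), with POLR1E not in it. Each of the 13 matched its hg19 chromosome exactly and once, and the positions below are in hg19, the build of the peak files. Capitals mark matches, on either strand, to CCGGAAG (the core bound by ETS factors), GGGCGG (bound by SP factors), CCAAT (the box bound by NF-Y), CACGTG (the E-box) or AAGATGG (part of the YY1 site). Overlapping matches run together. POLR1A and POLR1B had the largest falls of the subunits with ample counts, POLR1G and TAF1D were also called, POLR1C was lower by less and RRN3 did not pass the test.
POLR1A, chr2:86332960-86333259, minus strand: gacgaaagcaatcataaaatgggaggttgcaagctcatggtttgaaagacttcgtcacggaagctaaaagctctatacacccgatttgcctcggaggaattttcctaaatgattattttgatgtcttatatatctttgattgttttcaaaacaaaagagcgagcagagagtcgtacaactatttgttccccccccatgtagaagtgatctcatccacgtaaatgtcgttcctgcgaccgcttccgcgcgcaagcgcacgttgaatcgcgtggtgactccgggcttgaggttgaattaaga
POLR1B, chr2:113299792-113300091, plus strand, the more downstream of 2 starts: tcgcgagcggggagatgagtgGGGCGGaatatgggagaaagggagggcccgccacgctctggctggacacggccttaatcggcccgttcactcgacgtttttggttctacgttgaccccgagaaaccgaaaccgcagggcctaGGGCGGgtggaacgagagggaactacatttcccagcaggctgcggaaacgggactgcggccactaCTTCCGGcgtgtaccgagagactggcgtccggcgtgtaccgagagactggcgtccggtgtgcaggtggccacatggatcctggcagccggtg
POLR1G, chr19:45909652-45909951, plus strand: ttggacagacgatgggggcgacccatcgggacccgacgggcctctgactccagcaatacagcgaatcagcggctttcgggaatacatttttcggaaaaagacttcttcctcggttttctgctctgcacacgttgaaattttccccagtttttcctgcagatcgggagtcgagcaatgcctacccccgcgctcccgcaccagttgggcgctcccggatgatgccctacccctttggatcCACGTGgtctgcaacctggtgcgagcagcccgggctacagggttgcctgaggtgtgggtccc
TAF1D, chr11:93474612-93474911, minus strand: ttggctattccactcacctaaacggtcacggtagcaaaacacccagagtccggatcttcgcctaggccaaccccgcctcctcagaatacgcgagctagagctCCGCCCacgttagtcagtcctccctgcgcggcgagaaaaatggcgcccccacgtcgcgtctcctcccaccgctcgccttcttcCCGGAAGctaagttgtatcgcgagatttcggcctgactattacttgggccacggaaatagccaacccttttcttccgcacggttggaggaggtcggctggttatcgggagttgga
POLR1C, chr6:43484577-43484876, plus strand: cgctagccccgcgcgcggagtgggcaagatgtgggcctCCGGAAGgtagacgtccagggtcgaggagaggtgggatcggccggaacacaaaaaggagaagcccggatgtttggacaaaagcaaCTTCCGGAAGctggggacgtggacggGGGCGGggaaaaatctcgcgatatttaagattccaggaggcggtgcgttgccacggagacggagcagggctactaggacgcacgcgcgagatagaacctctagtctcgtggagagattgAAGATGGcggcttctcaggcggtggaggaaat
RRN3, chr16:15188080-15188379, minus strand, the more downstream of 2 starts: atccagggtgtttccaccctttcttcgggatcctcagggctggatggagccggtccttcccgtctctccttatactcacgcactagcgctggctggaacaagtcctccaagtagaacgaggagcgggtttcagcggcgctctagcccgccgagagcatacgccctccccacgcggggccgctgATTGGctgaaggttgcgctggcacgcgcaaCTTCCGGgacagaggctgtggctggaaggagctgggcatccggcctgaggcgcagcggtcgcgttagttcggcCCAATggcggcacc

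The catalytic subunits fell, with low standard errors. POLR1A, the largest subunit, which forms the active site together with POLR1B, had 1229 and 1244 fragments with vehicle and 672 and 582 with gemcitabine. In fragments the conditions were far apart, and the gemcitabine level was 54.9% of the vehicle level (log2 fold change -0.87, standard error 0.079, edgeR adjusted p = 1.49e-06). In FPKM they were closer, at 13.0 and 17.0 against 11.6 and 7.71. The call of POLR1A was lost with limma on log2(FPKM + 1) (limma adjusted p = 0.137). POLR1B went from 1144 and 1254 fragments to 613 and 572, or to 53.5% (log2 fold change -0.90, standard error 0.075, edgeR adjusted p = 6.36e-07). POLR1A lies on chromosome 2 of hg19 from 86247339 to 86333278 and POLR1B on the same chromosome from 113299492 to 113337395, on the minus and the plus strand.

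POLR1E and POLR1G encode the heterodimer that Pol I carries for initiation and elongation. POLR1E had 1067 and 1053 fragments with vehicle and 579 and 595 with gemcitabine, a level of 59.9% (log2 fold change -0.74, standard error 0.076, edgeR adjusted p = 4.40e-06). POLR1G was the scarcest member, with 62 and 63 fragments against 32 and 27. Its groups did not overlap, and its log2 fold change of -0.97 was the lowest of the members, but the 95% interval ran from -1.51 to -0.42 (edgeR adjusted p = 0.00773). The call of POLR1G was lost with DESeq2 (adjusted p = 0.0701), without vehicle library 1 (edgeR adjusted p = 0.0834) and without vehicle library 2 (edgeR adjusted p = 0.0745), and its log2 fold change was -0.94 and -0.98 without these libraries. POLR1G also shares 1593 exonic bases with ERCC1, a DNA repair gene on the other strand, and whether the counting used strand is not given in the sources used here. ERCC1 had 1128 and 1141 fragments with vehicle and 871 and 808 with gemcitabine (log2 fold change -0.32, edgeR adjusted p = 0.00269), and its part in the POLR1G value was not tested. Apart from POLR1G, 4 members were called lower.

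The subunits that Pol I shares with RNA polymerase III had smaller changes. POLR1C and POLR1D form the small assembly platform of both enzymes. POLR1C had 424 and 494 fragments with vehicle and 334 and 330 with gemcitabine (78.3%, log2 fold change -0.35, standard error 0.096, edgeR adjusted p = 0.00925). POLR1D had 1512 and 1561 against 1129 and 1119 (79.2%, log2 fold change -0.34, standard error 0.066, edgeR adjusted p = 0.00104). Both fell beyond the spread between replicates and neither reached the 1.5-fold criterion. POLR1C did not pass with DESeq2 (adjusted p = 0.0700) or without vehicle library 2 (log2 fold change -0.26, edgeR adjusted p = 0.178).

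Of the genes for the stalk and its partner, POLR1F fell and RRN3 did not pass the test. POLR1F had 850 and 906 fragments with vehicle and 582 and 645 with gemcitabine, or 75.7% (log2 fold change -0.40, standard error 0.081, edgeR adjusted p = 0.00127), and it missed the threshold without vehicle library 2 (-0.38, edgeR adjusted p = 0.0536). RRN3, the factor that loads the polymerase, had 759 and 819 against 749 and 645. After scaling these were 52.2 and 53.8 CPM against 54.0 and 47.4 CPM, so RRN3 was the only member whose conditions overlapped. Its log2 fold change was -0.06, with a 95% interval from -0.24 to 0.11 (edgeR adjusted p = 0.569), an interval that lies above those of POLR1A, POLR1B, POLR1E, POLR1G and TAF1D. The annotation names 4 RRN3 pseudogenes, whose reads can be hard to tell from those of RRN3, so its value is uncertain. Among member fragments RRN3 made up 6.41% and 6.57% in the vehicle libraries and 9.65% and 8.46% in the gemcitabine libraries, while the share of POLR1A went from 10.4% and 9.97% to 8.66% and 7.63%. A share rises when the other members fall more. That of POLR1D, which itself fell, went from 12.8% and 12.5% to 14.5% and 14.7%.

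Of the promoter factors, TAF1D was called and UBTF was not. UBTF, the architectural factor of active ribosomal genes, had 2247 and 2241 fragments with vehicle and 1486 and 1660 with gemcitabine (75.9%, log2 fold change -0.40, standard error 0.074, edgeR adjusted p = 0.000716), and it missed the threshold without vehicle library 1 (-0.36, edgeR adjusted p = 0.0508). TAF1D, a subunit of SL1, had 2556 and 2838 against 1587 and 1451 (61.0%, log2 fold change -0.71, standard error 0.069, edgeR adjusted p = 2.61e-06). Cuffdiff marked TAF1D as failed in 1 library, and over the left-out libraries the log2 fold change ran from -0.76 to -0.66. The annotation places 8 small nucleolar RNA genes inside TAF1D, SNORA1, SNORA8, SNORA18, SNORA25, SNORA32, SNORA40, SNORD5 and SNORD6, which guide modification of RNA and are not counted in a table of protein-coding genes.

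**Figure D2:**
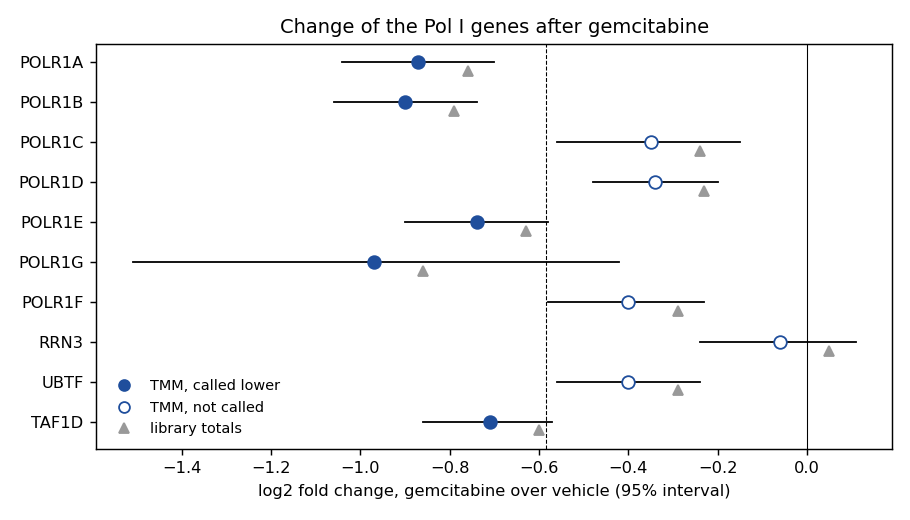
Log2 fold change of each Pol I gene, gemcitabine over vehicle, with its 95% interval under TMM scaling (circles, filled where called lower) and under library totals (triangles). The dashed line is the 1.5-fold limit, which the 5 called genes pass, and RRN3 is the gene whose sign differs between the scalings.

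POLR1E lies on chromosome 9 from 37485945 to 37503694 and POLR1G on chromosome 19 from 45909902 to 45913995, both on the plus strand of hg19. POLR1C spans 43477440 to 43530156 on chromosome 6 and POLR1D 28194879 to 28318374 on chromosome 13, also on the plus strand. The other members are on the minus strand, POLR1F on chromosome 7 from 19735084 to 19748660, UBTF on chromosome 17 from 42282401 to 42298994, RRN3 on chromosome 16 from 15153890 to 15188168 and TAF1D on chromosome 11 from 93463114 to 93517557. POLR1A and POLR1B are the only members that share a chromosome.

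The scaling shifted all members together. With library totals in place of TMM, the median over all tested genes rose from 0.0068 to 0.12 (log2) and that of the members from -0.56 to -0.45. The same 5 members were called lower. Of the 10, 8 passed the adjusted p, and POLR1C did not (log2 fold change -0.24, edgeR adjusted p = 0.0633). RRN3 turned to 0.05 under library totals, at an edgeR adjusted p of 0.706.

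Levels of different genes are compared in FPKM, which is per length. In vehicle cells TAF1D stood highest, at 211 and 206 FPKM, followed by POLR1D at 116 and 110 FPKM. UBTF (52.7 and 43.4 FPKM), POLR1C (39.0 and 48.6) and POLR1E (39.9 and 36.2) came next, and neighbours in this run overlapped between libraries. POLR1B had 29.6 and 31.4 FPKM. POLR1F (20.9 and 14.3 FPKM), POLR1A (13.0 and 17.0) and RRN3 (13.2 and 13.1) also overlapped their neighbours, and POLR1G was lowest at 3.71 and 3.28 FPKM. After gemcitabine TAF1D and POLR1D kept the first places, at 147 and 137 FPKM and at 100.0 and 104 FPKM, and POLR1G the last, at 1.23 and 1.39 FPKM. RRN3, at 14.3 and 12.7 FPKM, then stood above POLR1A, at 11.6 and 7.71 FPKM, without overlap, whereas the vehicle levels of both had overlapped.

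FPKM and fragment counts gave different pictures for some members. In FPKM, 7 of the 10 members had both gemcitabine libraries below both vehicle libraries, against 20.3% of all tested genes, and in TMM-scaled CPM 9 of 10, against 34.7%. The members that overlapped in FPKM were POLR1C, POLR1F and RRN3. POLR1F had 20.9 and 14.3 FPKM with vehicle and 14.8 and 21.9 with gemcitabine, so its conditions overlapped while its fragments did not. The transcript length implied by fragments, FPKM and the library total was 2.68 and 4.03 kb for POLR1F with vehicle and 2.99 and 2.22 kb with gemcitabine. For POLR1A it was 6.23 and 4.63 kb against 4.39 and 5.69 kb, and for POLR1G 1.10 and 1.22 kb against 1.98 and 1.46 kb. POLR1B stayed between 2.42 and 2.61 kb and POLR1E between 1.76 and 1.85 kb in all 4 libraries. This length depends on Cuffdiff's split of reads over isoforms and on any other scaling within its FPKM. Which of these moved it was not tested. Over all tested genes the replicates differed in it by a median of 0.111 (log2) with vehicle and 0.110 with gemcitabine, and over the members by 0.136 and 0.0897.

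**Figure D3:**
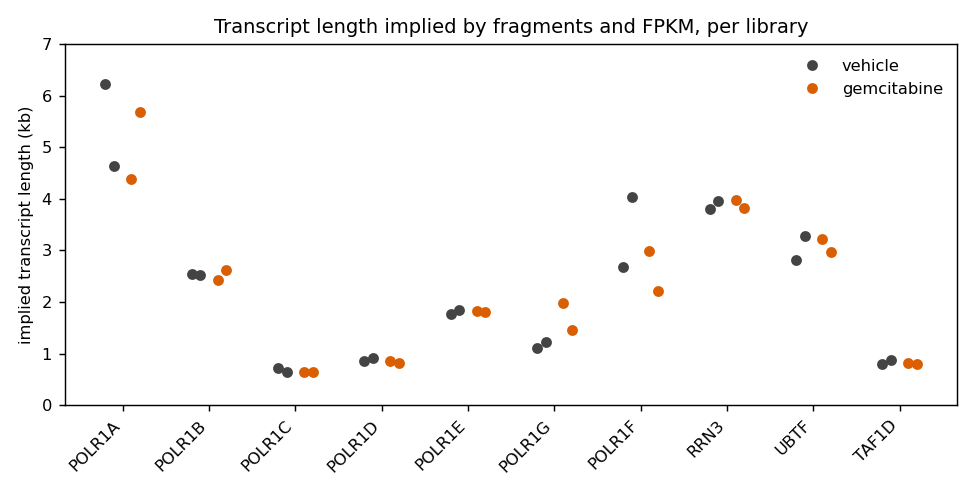
Transcript length in kb implied by the fragments, the FPKM and the library total of each Pol I gene, with 2 vehicle and 2 gemcitabine libraries as points. POLR1A and POLR1F lie more than 1 kb apart between the libraries of at least 1 condition, and POLR1B and POLR1E do not.

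When limma was run on log2(FPKM + 1), 3 members were called lower, POLR1B, POLR1E and POLR1G. POLR1A then had a log2 fold change of -0.60 (limma adjusted p = 0.137), TAF1D one of -0.55 (limma adjusted p = 0.0194), short of 1.5-fold, and POLR1F one of 0.05 (limma adjusted p = 0.902). POLR1B and POLR1E were called under every other scaling, filter, tool and left-out library tried, except under limma on log2(FPKM + 1) with no filter, which called 0 of all genes and had 4689 at an unadjusted p under 0.05, 4 of them members.

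Pol I factors outside the 10 members were split. Of 7 such genes, 3 passed the adjusted p with a lower level, 0 with a higher one, and 0 were called, with a median log2 fold change of 0.01. Over all tested genes, 20.0% passed it lower and 18.5% higher. TAF1A, an SL1 subunit, went from 148 and 170 fragments to 113 and 93 (log2 fold change -0.51, edgeR adjusted p = 0.0180). POLR1H, the small zinc-ribbon subunit also known as ZNRD1, and TAF1B, an SL1 subunit, had log2 fold changes of -0.40 and -0.30 (edgeR adjusted p = 0.0168 and 0.0276). The SL1 subunits TAF1C and TBP had values of 0.13 and 0.08, and TTF1, the termination factor, and CAVIN1, a transcript release factor, 0.01 and 0.04, none of these past the test. With DESeq2, with library totals or in any limma fit, 0 of the 7 passed the adjusted p. At an unadjusted p under 0.05, 2 were lower with DESeq2, 2 with library totals and 1 in each limma fit. With library totals 2 others were higher at that level, and without gemcitabine library 2 there was 1 gene past the adjusted p with a higher level.

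The other nuclear polymerases gave a reference for the Pol I genes. Among all tested genes, 20.0% passed the adjusted p lower and 18.5% higher, and 4.43% were called lower. Of the 5 subunits common to all 3 enzymes, 1 passed the adjusted p, POLR2H with a log2 fold change of -0.27 (edgeR adjusted p = 0.0159), and the median was 0.02. Cuffdiff marked POLR2H as failed in 1 library. With DESeq2, limma or no filter, or without either vehicle library, 0 of the 5 passed, and with library totals 0 passed lower and 2 higher. Of 7 subunits specific to Pol II, the enzyme of messenger RNA, 0 passed the adjusted p in either direction with edgeR, 2 had a lower level at an unadjusted p under 0.05, and with DESeq2 0 reached even that. With library totals 3 of the 7 passed higher with edgeR, and without gemcitabine library 2 there were 2 lower and 1 higher. Of 10 subunits specific to Pol III, which makes transfer RNA and the smallest ribosomal RNA, 7 passed it lower and 0 higher, and 2 were called lower. With library totals 6 passed lower and 2 higher, without either vehicle library 4 lower, and with limma on log2(FPKM + 1) 2 lower. POLR3G fell from 477 and 468 fragments to 206 and 193 (log2 fold change -1.13, standard error 0.10, edgeR adjusted p = 1.35e-06), although Cuffdiff marked it as failed in all 4 libraries. POLR3GL, its alternative in the same place of the enzyme, had 187 and 225 against 210 and 244 (log2 fold change 0.26, edgeR adjusted p = 0.135). POLR3E fell from 1184 and 1234 to 607 and 610 (log2 fold change -0.88, edgeR adjusted p = 6.34e-07), and POLR3K by 0.57 on the log2 scale without being called. Among 11 Pol III initiation factors, the repressor MAF1 included, 4 passed the adjusted p lower and 1 higher, and 0 were called. In the limma fits with a filter 0 passed lower and 1 was called higher, and without gemcitabine library 2 there was 1 called lower. BRF2 was the higher gene (log2 fold change 0.29, edgeR adjusted p = 0.0490), and 0 passed higher with DESeq2, with no filter or without either vehicle library. GTF3C4 had a log2 fold change of -0.56 (edgeR adjusted p = 4.43e-05).

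Nucleolar scaffold and pre-ribosomal RNA chaperone genes had a lower median log2 fold change than the 10 members (-0.56). It was also below that of the 8 members without POLR1C and POLR1D (-0.73). Genes of ribosomal DNA chromatin and silencing had a higher median than the members. Of 12 nucleolar scaffold proteins and chaperones of pre-ribosomal RNA, 9 were called lower, 11 passed the adjusted p lower, and the median log2 fold change was -0.86. Among all tested genes, 4.43% were called lower and 20.0% passed the adjusted p lower. NCL (nucleolin), which binds pre-ribosomal RNA, went from 16082 and 16676 fragments to 6829 and 7741 (log2 fold change -1.05, edgeR adjusted p = 1.96e-07). DDX21, an RNA helicase of the nucleolus, went from 6080 and 6546 to 2521 and 2792 (log2 fold change -1.13, edgeR adjusted p = 8.90e-08). NOP56, of the methylation complex of small nucleolar RNAs, and DKC1, the pseudouridine synthase, had log2 fold changes of -1.13 and -1.05, with NOLC1 at -0.95, GNL3 at -0.89, NPM1 at -0.82, LYAR at -0.72 and NOP58 at -0.70, all called. TCOF1, which assists Pol I transcription and whose gene is mutated, like POLR1C and POLR1D, in Treacher Collins syndrome, reached -0.57 (edgeR adjusted p = 2.05e-05) and was not called.
Of 14 genes of ribosomal DNA chromatin and silencing, 7 passed the adjusted p lower and 1 higher, with a median of -0.21. The shares over all tested genes were 20.0% lower and 18.5% higher. With library totals 3 passed lower and 2 higher, without either vehicle library 3 lower, and with limma on log2(FPKM + 1) 2 lower and 0 higher. MYBBP1A, a nucleolar protein that binds Pol I, was called, from 3568 and 3719 fragments to 1553 and 1612 (log2 fold change -1.09, edgeR adjusted p = 6.08e-08). BAZ1B followed at -0.53, and ERCC6, a remodelling ATPase of repair and Pol I transcription, was higher at 0.40 (edgeR adjusted p = 0.00197). The difference between any pair of these lists was not tested.

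**Figure D4:**
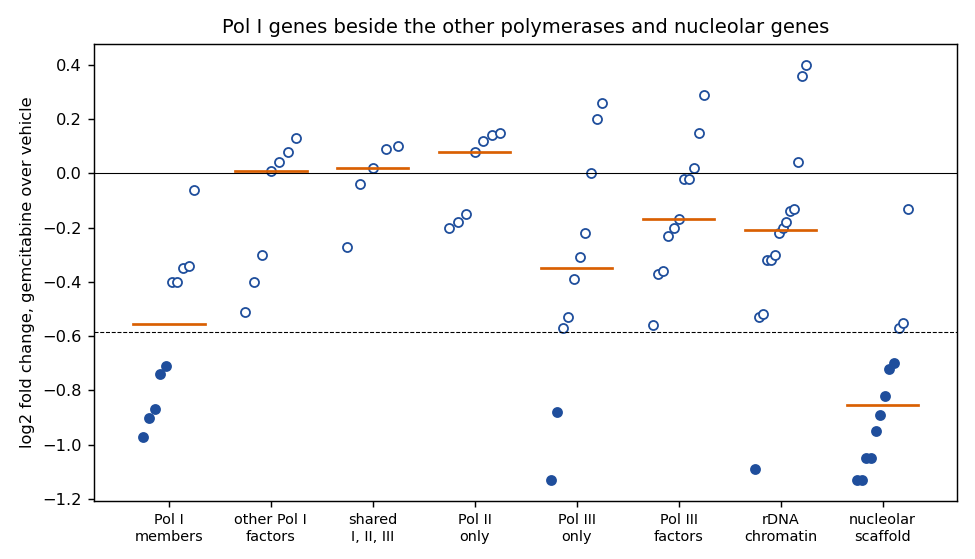
Log2 fold change of each gene, gemcitabine over vehicle, for the 10 Pol I members and 7 further lists, with filled circles for genes called lower, a bar for the median of each list and a dashed line at the 1.5-fold limit. The Pol II subunits lie between -0.20 and 0.15, the members between -0.97 and -0.06 and the nucleolar scaffold genes between -1.13 and -0.13.

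DNaseI peaks were then read at the starts of the members. A peak within 1000 bp of an annotated protein-coding start was present for 6 of the 10 members in at least 1 condition, against 39.0% of the 14154 tested genes with a start in the annotation. The vehicle list held 9606 peaks and gave 4 members, against 27.8% of the tested genes. The gemcitabine list held 10695 peaks and gave 5 members, against 32.2%. With 1 library per condition, none of this has a replicate check, and the score of MACS was not compared between the lists. POLR1A, POLR1C and TAF1D had peaks in both lists, and the peaks overlapped. At POLR1A the vehicle peak spanned 961 bp with a score of 72.48 and the gemcitabine peak 1385 bp with a score of 151.22, and both covered all 300 bases of the promoter printed above. At TAF1D the peaks of 1769 and 1793 bp did so too. At POLR1C the vehicle peak covered 300 of the bases and the gemcitabine peak 297.
POLR1B had a peak in the vehicle list alone, with a score of 52.18, just over the minimum of 50 that the lists hold. POLR1D and POLR1G had one in the gemcitabine list alone, with scores of 75.06 and 166.3. For POLR1E, POLR1F and RRN3 no peak lay within 5000 bp of a start in either list, and for UBTF the nearest edge was 1690 bp away with vehicle and 1522 bp with gemcitabine.

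**Figure D5:**
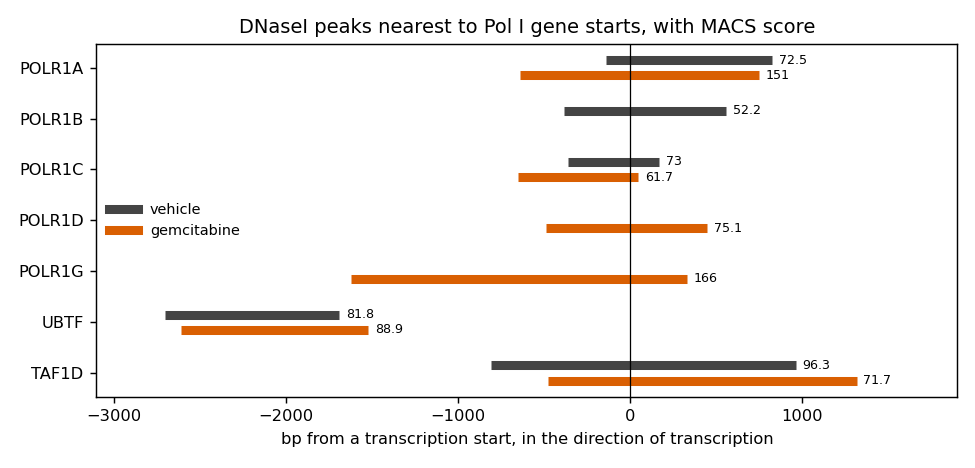
Extent of the nearest DNaseI peak around a transcription start of each member with a peak within 5000 bp, in bp along the direction of transcription, for the vehicle and gemcitabine libraries, with the MACS score beside each bar. All bars cross the start except those of UBTF, which end 1522 bp or more upstream of it.

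Several members share their start region with a gene on the other strand, so a peak there cannot be assigned to 1 gene of the pair. PTCD3 starts 69 bp from POLR1A, YIPF3 135 bp from POLR1C, C11orf54 96 bp from TAF1D, PPP1R13L 295 bp from POLR1G and LNX2 214 bp from POLR1D. None of these 5 partners passed the test with a lower level. PTCD3 had 1580 and 1685 fragments with vehicle and 1503 and 1401 with gemcitabine (log2 fold change -0.05, edgeR adjusted p = 0.549), and YIPF3, C11orf54 and LNX2 had log2 fold changes of 0.14, 0.07 and 0.09, none past the test. PPP1R13L was higher, from 965 and 955 to 1068 and 1104 fragments (log2 fold change 0.29, edgeR adjusted p = 0.00516). MED17, whose start lies 10 bp from a distal start of TAF1D, was lower, at 719 and 741 fragments against 922 and 969 (log2 fold change -0.26, edgeR adjusted p = 0.0119). A test of the difference between partners was not run.

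No motif was found in all 9 members with a promoter. CCGGAAG was found in 4 of the 9 members with a promoter, POLR1B, POLR1C, RRN3 and TAF1D, or 6 of 13 promoters, of which the 2 of RRN3 overlap and hold the same match, against 10.3% of all 35116 promoters in the table and 15.1% of those of tested genes. POLR1C held it 3 times, at -212, -127 and -124 counted from the first transcribed base as +1, the last pair overlapping on opposite strands. GGGCGG was found in 5 members, POLR1B, POLR1C, POLR1D, TAF1D and UBTF, or 8 of 13 promoters, against 63.5% of promoters of tested genes. CCAAT was found in POLR1D and RRN3, or 3 of 13 promoters, of which the overlapping 2 of RRN3 share 1 match, against 34.3%. AAGATGG was in POLR1C alone, 1 of 13 promoters against 6.44%, and CACGTG in POLR1G alone, at -12, 1 of 13 against 8.94%. GCATGCGC, the core read by NRF1, and TATAAA were in none of the 13, against 4.33% and 6.91% of promoters of tested genes. POLR1A and POLR1F held none of the 7 motifs.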

How the data were processed

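PANC1 cells given vehicle or gemcitabine were measured by RNA-seq (2 libraries per condition) and DNaseI-seq (1 per condition). The authors aligned single-end RNA reads to hg19 with TopHat2 2.0.8 and deposited, per gene and library, estimated counts of fragments and FPKM values from Cuffdiff 2.0.2 with Gencode protein-coding genes. Cuffdiff divides reads over isoforms, so FPKM depends on the length it assigns. The authors called the DNaseI peaks with MACS, and the deposited score ranks peaks within a list only. The 2 columns of scaled fragments in the table were not used.

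Estimated counts, of which 86.8% were whole, were rounded and tested with edgeR 4.0.16 (R 4.3.3) by its quasi-likelihood test, TMM scaling and a minimum of 10 fragments over the 4 libraries, with Benjamini-Hochberg adjustment over 14854 genes. Totals were 15153593 and 15766237 fragments with vehicle and 13194533 and 13275457 with gemcitabine. The replicates are described as biological. The p-values weigh a change against the spread between them, which edgeR estimates in part from all tested genes. DESeq2 1.42.0 and limma 3.58.1, on log2(FPKM + 1) or log2(FPKM + 0.1), were alternatives, as were other scalings, filters, criteria and leaving out each library. The fit was also run on simulated counts with the same spread for all genes and libraries. The real pairs varied unequally, so that run does not show how the fit performs on these data. The groups were those of the labels. The members and lists were chosen with earlier results of these data known. All members were named, and from each list the called genes and, of the others past the adjusted p, the one with the largest change. POLR1H, TAF1B, TAF1C, TBP, TTF1, CAVIN1, POLR3GL, BRF2 and ERCC6 were named after their values were seen. Transcription starts came from Gencode v44 lifted to GRCh37, later than the annotation behind the counts, and promoters from RefSeq.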

Additional observations from a re-analysis of the deposited data

How the results depend on the processing

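With 2 libraries per condition the spread rests on few samples, and POLR1G, with at most 63 fragments in a library, is the member that depth limits most. Over all genes the 658 called lower became 417 with library totals, 326 with limma on log2(FPKM + 1), 350 with limma on log2(FPKM + 0.1), 0 with limma on log2(FPKM + 1) with no filter and 2975 by the adjusted p alone. The 845 called higher became 1164 with library totals, 0 with limma and no filter, and 2750 by the adjusted p alone. The 5 members called lower became 3 with limma on log2(FPKM + 1), 3 on log2(FPKM + 0.1), 0 with no filter and 9 by the adjusted p alone, and leaving out each library gave 4 to 5. The limma fit with no filter tested 17783 genes. POLR1F turned higher with limma, at 0.05 on log2(FPKM + 1), 0.06 on log2(FPKM + 0.1) and 0.05 with no filter. RRN3 turned higher with library totals (0.05), in the 3 limma fits (0.03, 0.03 and 0.03) and without gemcitabine library 2, the range over left-out libraries being -0.16 to 0.03. The cause was not tested. Of 120 fold changes of members under alternatives, 8 turned and 12 lost the call by all criteria. By the adjusted p alone, 27 of the 108 values of the 9 members past it no longer passed, 19 of them with limma. With a MACS score of at least 100, the 6 members with a peak near a start became 2. No paired analysis was possible because the table numbers its libraries in a way of its own, which does not identify rep1 and rep2 of the labels.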
